A study of Homo sapiens with 8 samples.

Results

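A set of 7 structured RNAs, of 58735 genes in the tables, was followed through an antibody pull-down of oxidised RNA: RN7SL1 and RN7SL2 (the 7SL RNA genes), RN7SK, RMRP, RPPH1, TERC and RNY1. They were taken by name, as the folded RNAs that RNA polymerase III makes or that act in ribozymes. All 7 were among the 18242 genes that passed the filter on low counts. The label covers TERC only loosely, because human TERC is made by RNA polymerase II and serves as a template, not as a catalyst.

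The RNA came from BEAS-2B, an immortalised human bronchial epithelial line grown on inserts at an air-liquid interface. Cultures breathed humidified clean air (CA) or air carrying formaldehyde at 1 ppm (FA) for 2 h and recovered for 6 h. After removal of ribosomal RNA, a share of each RNA was sequenced directly (input, CA_IN and FA_IN), and another share after binding to an antibody against 8-oxo-7,8-dihydroguanine (8-oxoG), the main oxidation product of guanine (pull-down, CA_IP and FA_IP). Each of the 4 groups held 2 libraries of between 16883500 and 45144392 counts, and the labels name different clones of the antibody in different places. One cell line stands for the airway here. There was no pull-down with a control antibody among the libraries used, so a pull-down level is read only against its input. A library measures each RNA's share of the sequenced RNA, so a lower value in the pull-down is a lower share of what was recovered and not an amount of 8-oxoG. The 8 epithelial markers looked up (KRT5, KRT7, KRT8, KRT18, KRT19, TP63, CDH1 and EPCAM) had at least 610 counts in every library, and the 5 markers of other cell types (PTPRC, PECAM1, CDH5, DES and ALB) summed to 14 to 61 counts.

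Each of the 7 RNAs is the core of a ribonucleoprotein. The 7SL RNA is the scaffold of the signal recognition particle, which halts ribosomes that make secreted proteins and brings them to the endoplasmic reticulum. 7SK RNA holds the elongation kinase P-TEFb inactive together with HEXIM proteins and LARP7. RPPH1 is the catalytic RNA of RNase P, which trims the leader of tRNA precursors, and RMRP is its relative in RNase MRP, which cuts the precursor of ribosomal RNA. TERC carries the template that telomerase copies into telomere repeats. RNY1 is a Y RNA, bound by the Ro60 and La proteins.

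RN7SL1 and RN7SL2 lie on chromosome 14, on the plus and the minus strand. They are 299 and 300 bases long and 98.3% identical. Of the 225 stretches of 75 bases (the read length) in RN7SL1, 131 (58.2%) occur unchanged in RN7SL2, and a single read from those could come from either gene.

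RMRP (chr9:35657754-35658017, minus strand) and RNY1 (chr7:148987136-148987248, minus strand) are shown whole, from GENCODE 44 in DNA letters, as the members with the lowest pull-down levels relative to input. Capitals mark runs of 3 or more guanines, the base that oxidation turns into 8-oxoG:
RMRP: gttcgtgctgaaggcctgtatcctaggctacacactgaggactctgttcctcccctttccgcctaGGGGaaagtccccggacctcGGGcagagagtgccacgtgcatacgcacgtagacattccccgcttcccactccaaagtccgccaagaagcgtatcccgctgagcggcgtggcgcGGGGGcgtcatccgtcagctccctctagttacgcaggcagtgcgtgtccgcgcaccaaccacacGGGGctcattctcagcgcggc
RNY1: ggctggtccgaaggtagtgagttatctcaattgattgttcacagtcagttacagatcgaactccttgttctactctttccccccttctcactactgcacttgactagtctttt
RNY1 has no such run, and its 113 bases hold 20 guanines (17.7%), a lower share than in all but 2.02% of the tested genes. RMRP has 4 runs and 28.0% guanine in 264 bases. RN7SK (chr6:52995621-52995948, plus strand, 328 bases) likewise has 28.0% guanine, with 5 runs. The remaining members are richer. RPPH1 (chr14:20343075-20343407, minus strand, 333 bases) has 34.2% and 11 runs, TERC has 34.0% and 17 runs, and RN7SL1 and RN7SL2 have 35.1% and 35.0% with 9 runs each. The median over the 17934 tested genes with a sequence was 24.7%.

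TERC (chr3:169764520-169765060, minus strand, 541 bases) is printed over its first 120 bases, with the stretch that contains the telomere template (bases 46 to 56) in capitals, because a second annotated entry that starts and ends inside the gene holds most of its counts:
TERC: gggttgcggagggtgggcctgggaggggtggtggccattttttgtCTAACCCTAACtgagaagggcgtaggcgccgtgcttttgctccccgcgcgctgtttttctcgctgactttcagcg
All 7 genes are annotated with 1 transcript of a single exon.

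In clean-air input the 7SL RNAs were the most abundant RNAs per length, though by counts alone they ranked 2 and 3. In counts-per-million (CPM) per kilobase of full length, RN7SL1 stood at 148303 ± 3897 (SD, n = 2) and ranked 1 of 31688 detected genes, and RN7SL2 at 126316 ± 3094 ranked 2. RN7SK ranked 4 on this scale at 60621 ± 733, RPPH1 ranked 6 at 26111 ± 2015, and RMRP ranked 7 at 14525 ± 1387. TERC (24.5 ± 6.97) and RNY1 (12.7 ± 1.38) lay far below, at ranks 3093 and 5171. The TERC value covers 1 of 2 overlapping entries, with 12.9% and 14.4% of the counts of both in CA_IN, so it understates the RNA. RNY1 was given an effective length of 0, so its value per full length cannot be set beside those of longer RNAs. On the length-corrected level (TPM) that RSEM reports, RMRP and RPPH1 had means of 23090 and 26687 in CA_IN, closer than per full length. Neighbours in the order per full length were separated by more than their spread. The 7 genes together took 11.2% and 11.7% of all counts in CA_IN against 6.96% and 8.27% in CA_IP. The formaldehyde inputs gave 13.2% and 10.7%, and their pull-downs 7.34% and 7.44%. Every pull-down library was thus below every input library.

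**Figure D1:**
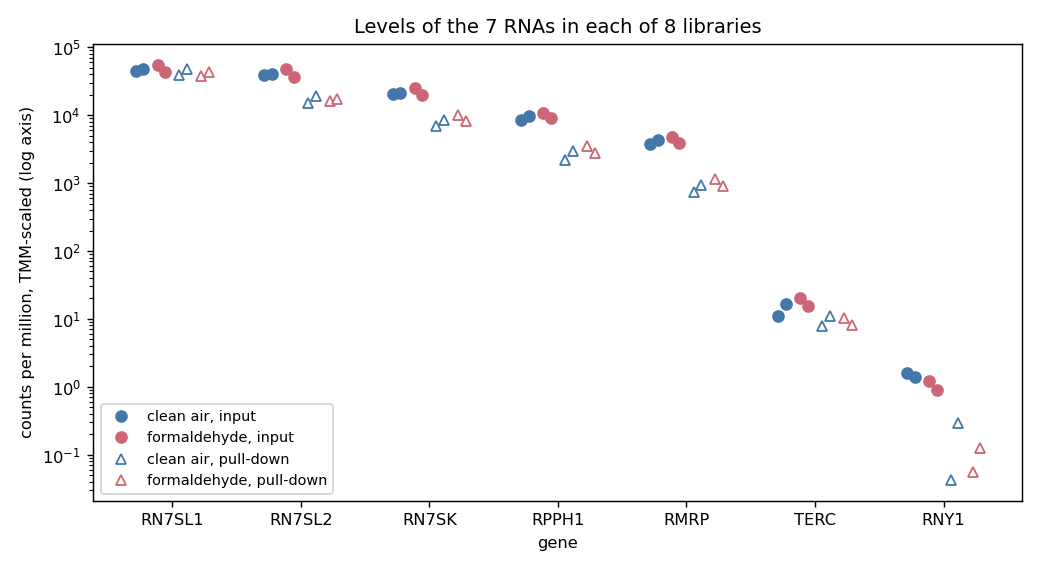
CPM after TMM scaling (log axis) of the 7 RNAs, with 1 point for each of the 8 libraries. Input libraries are filled circles and pull-down libraries open triangles, clean air in blue and formaldehyde in red. RN7SK, RPPH1, RMRP, RN7SL2 and RNY1 lie lower in every pull-down than in every input, and RN7SL1 and TERC do not. The share of all genes that part in this way was not counted.

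The first comparison asked which RNAs were over- or under-represented after the pull-down in each exposure. In both exposures the 7SK RNA, both ribozyme RNAs, RN7SL2 and RNY1 fell, while RN7SL1 and TERC did not pass the test. Thus 5 of 7 were called lower and 0 higher at an adjusted p under 0.05 in clean air, where 1.77% of all 18242 tested genes were called lower and 0.148% higher. The same 5 were called lower with formaldehyde, where 1.47% of all genes were lower and 0.0329% higher. Among these 5, RNY1 passed the filter on low counts only through its input libraries, so it could hardly be called anything but lower. RN7SL2 is near-identical to RN7SL1, and the sum of both genes was called in neither exposure (adjusted p = 0.17 and 0.083). That sum was tested only in a fit that did not pair input with pull-down from the same RNA. The median log2 fold change of the 7 was -1.44 in clean air and -1.31 with formaldehyde, beside 0.02 and 0.00 over all genes. With the mean of both pull-downs against both inputs, 5 of 7 were again lower, with 3.04% of all genes lower and 2.15% higher. Here a log2 fold change is the edgeR estimate on counts scaled by TMM, and the adjusted p is from its quasi-likelihood test with Benjamini-Hochberg adjustment over all genes. Statements below that groups of 2 libraries overlap or not only describe the values. The share of all genes whose groups do not overlap was not counted.

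RMRP had the lowest fold change among the members with high counts. It measured 3705 and 4288 CPM (TMM-scaled) in CA_IN and 727 and 950 in CA_IP. The log2 fold change was -2.25 ± 0.17 (SE, adjusted p = 0.00026), a 4.76-fold lower level. In FA_IN it measured 4742 and 3921 CPM and in FA_IP 1143 and 909, a log2 fold change of -2.08 ± 0.17 (adjusted p = 0.00048). The groups did not overlap in either exposure, and within each RNA pool the log2 ratio of pull-down to input ran from -2.35 to -2.05. Whether an unplaced entry of 268 bases, ENSG00000269900, shares reads with RMRP was not tested, and its counts were not added.

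RPPH1, the RNase P relative of RMRP, followed. Its 8517 and 9606 CPM in CA_IN stood against 2202 and 2989 in CA_IP, with a log2 fold change of -1.80 ± 0.17 (adjusted p = 0.00066). With formaldehyde, 10609 and 9097 CPM in input stood against 3504 and 2798 in the pull-down (-1.64 ± 0.17, adjusted p = 0.0014). The input libraries were all above the pull-down libraries. A longer lncRNA entry on the same strand, ENSG00000259001 (chr14:20343048-20343685), covers RPPH1, and adding its counts, at most 2.83% of those of RPPH1, left the fold changes at -1.81 and -1.65.

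RN7SK showed 20425 and 21008 CPM in CA_IN and 6850 and 8421 in CA_IP. Its log2 fold change was -1.44 ± 0.16 (adjusted p = 0.0014), or 2.71-fold lower. In the formaldehyde pair it showed 25196 and 20109 CPM in input and 10198 and 8153 in the pull-down (-1.30 ± 0.16, adjusted p = 0.0032). The groups were again apart, although without FA_IN replicate 1 the formaldehyde value became -1.12 with an adjusted p of 0.056. A second entry named 7SK at the same place held at most 0.115% of the counts of RN7SK.

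RNY1 had few reads and passed the filter on low counts only through its input libraries. A gene kept in that way can hardly be called anything but lower. It had 70 and 51 counts in CA_IN and 1 and 6 in CA_IP, then 29 and 31 counts in FA_IN and 1 and 3 in FA_IP. Over both libraries of a group, the level in the pull-down was 0.104 of that in input in clean air (95% exact interval 0.0411 to 0.222) and 0.0921 with formaldehyde (0.0243 to 0.248), intervals that cover counting error only. The fitted log2 fold changes, which at such counts depend on the prior count, were -3.21 ± 0.56 (adjusted p = 0.021) and -3.41 ± 0.67 (adjusted p = 0.042). The drop is large in every library, but the calls are fragile: 3 of 8 fits that left out 1 library in turn lost the clean-air call (adjusted p up to 0.095, without CA_IP replicate 1), and 6 of 8 lost the formaldehyde call (adjusted p up to 0.28, without FA_IP replicate 1). Those that lost the clean-air call left out CA_IN replicate 1, CA_IN replicate 2 or CA_IP replicate 1. The formaldehyde call was lost without any 1 of the FA_IN or FA_IP libraries or of the CA_IN libraries. RNY1 is listed with an effective length of 0 and a TPM (the length-corrected level that RSEM reports) of 0 in all 8 libraries despite these counts.

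**Figure D2:**
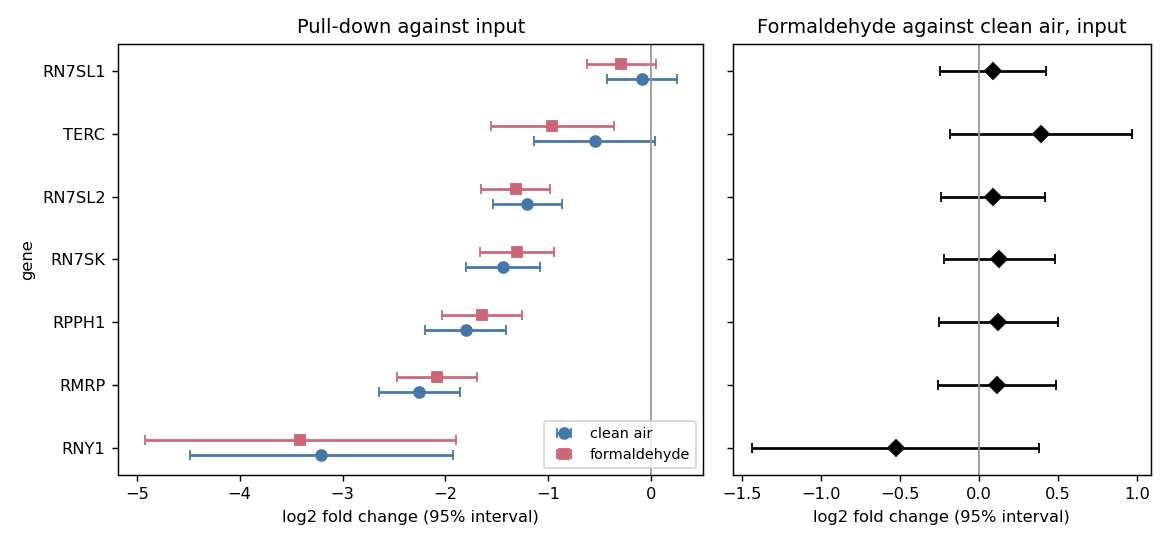
Log2 fold changes with 95% intervals (horizontal bars) from the edgeR fit. The left panel has pull-down against input in clean air (blue circles) and formaldehyde (red squares), and the right panel formaldehyde against clean air in input. Pull-down values run from RNY1 at -3.21 and -3.41 to RN7SL1 at -0.09 and -0.29, while all 7 intervals in the right panel include 0.

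The 7SL genes parted in the pull-down. RN7SL2 measured 38582 and 40386 CPM in CA_IN and 15369 and 18946 in CA_IP, a log2 fold change of -1.20 ± 0.15 (adjusted p = 0.0028). In the formaldehyde pair it measured 47348 and 36688 CPM in input and 16220 and 17572 in the pull-down (-1.31 ± 0.15, adjusted p = 0.0021). RN7SL1, in contrast, measured 45089 and 47316 CPM in CA_IN and 39440 and 47555 in CA_IP, and the groups overlapped. Its log2 fold change was -0.09 ± 0.15 (adjusted p = 0.89), with a 95% interval of -0.42 to 0.25. With formaldehyde, 55372 and 42767 CPM in input and 37438 and 42802 in the pull-down gave overlapping groups and -0.29 ± 0.15 (adjusted p = 0.66, interval -0.63 to 0.05). In the fit with each RNA pool as a block this last value was -0.28 with an adjusted p of 0.027, and in clean air -0.09 with an adjusted p of 0.50.

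The split of counts between these near-identical genes was almost the same in every input and changed in every pull-down. The ratio of RN7SL1 to RN7SL2 counts was 1.17, 1.17, 1.17 and 1.17 in the 4 input libraries, with an SD of 0.0021 in CA_IN and 0.0027 in FA_IN. It was 2.57 and 2.51 in CA_IP and 2.31 and 2.44 in FA_IP. The pull-down libraries therefore had a 2.10-fold higher ratio, or a difference of 1.07 on the log2 scale. This ratio was singled out after its values were seen and is given without a test. RN7SL1 held 53.9% of the summed counts of both genes in CA_IN and 71.7% in CA_IP. How the counting tool shared out reads that fit both genes could shift this split, and its part in the change was not tested.

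**Figure D3:**
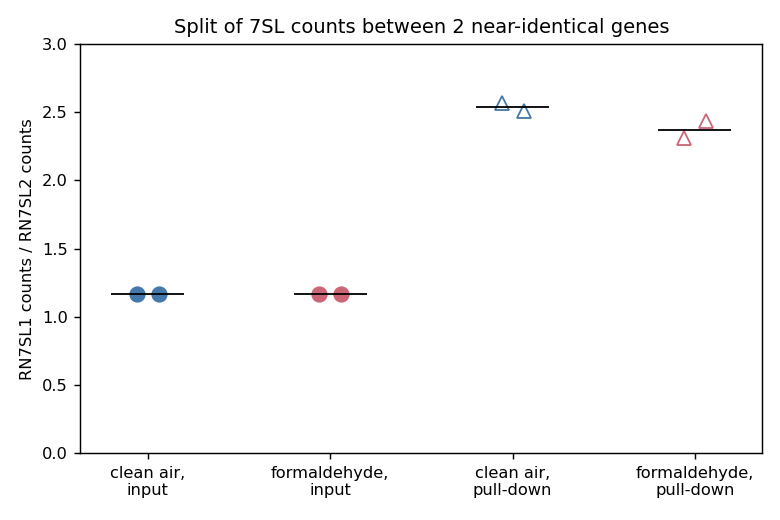
Ratio of RN7SL1 to RN7SL2 expected counts in each library (points), with the mean of each group of 2 (line). Inputs sit at 1.17, and pull-downs between 2.31 and 2.57.

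A sum over both genes does not depend on that split. RN7SL1 and RN7SL2 summed had a log2 fold change of -0.50 ± 0.15 in clean air (adjusted p = 0.17) and -0.68 ± 0.15 with formaldehyde (adjusted p = 0.083), and -0.59 ± 0.10 over both (adjusted p = 0.015). The sum was not fitted with the RNA pool as a block, where the SE of RN7SL2 in clean air was 0.077. RN7SL3, another 7SL gene, was 97.7% identical to RN7SL1 and held 0.436% to 0.629% of the counts of the 3 genes. Its values were -0.58 ± 0.23 (adjusted p = 0.35) and -0.72 ± 0.23 (adjusted p = 0.31). The 677 annotated pseudogene copies of 7SL held at most 0.134% of the counts of RN7SL1.

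Direction for RN7SL1 depended on the unit. On the deposited TPM scale, which divides by effective length and then sets the sum of each library to a fixed total, RN7SL1 stood at 180271 and 183699 in CA_IN and 305625 and 316195 in CA_IP. FA_IN had 198403 and 181805 TPM, and FA_IP 294161 and 289393. RN7SL2 was lower in the pull-down on this scale too, at 152798 and 155299 TPM in CA_IN and 117955 and 124814 in CA_IP. TERC was not separated on it, with 12.3 and 18.0 TPM in CA_IN and 16.8 and 21.2 in CA_IP. Several mRNAs rose on this scale too. From CA_IN to CA_IP, mean TPM went from 90.8 to 165 for SRP9, 25.45 to 49.3 for SRP72 and 10.7 to 21.1 for HEXIM1. It fell for NOP10 (65.9 to 45.75) and RPP21 (14.9 to 13.3). A rise in TPM is therefore not by itself a rise relative to other genes. The effective length of the short members was a small part of the full length and differed between libraries: that of RN7SL1 ran from 74.7 to 96.0 bases and that of RMRP from 47.3 to 66.1, both lowest in FA_IP replicate 1.

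The TERC entry did not pass the test in either exposure. It had 477 and 610 counts in CA_IN against 186 and 229 in CA_IP. With formaldehyde the input held 496 and 541 counts and the pull-down 189 and 200. In TMM-scaled CPM these were 10.9 and 16.7, 7.86 and 11.0, 20.6 and 15.6, and 10.4 and 8.21. The clean-air groups overlapped and the formaldehyde groups did not. Log2 fold changes were -0.55 ± 0.26 in clean air (adjusted p = 0.45) and -0.96 ± 0.26 with formaldehyde (adjusted p = 0.19). With the RNA pool as a block, TERC was called lower in clean air (-0.54, adjusted p = 0.00064) and with formaldehyde (-0.95, adjusted p = 3.9e-07). That fit raised the calls over all genes as well, to 1067 lower and 2111 higher in clean air from 322 and 27, and to 840 and 995 with formaldehyde from 268 and 6.

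Most reads of the telomerase RNA were counted elsewhere. An entry named Telomerase-vert (chr3:169764610-169765047, same strand, 438 bases) lies inside TERC, and held 3211 and 3636 counts in CA_IN against 1265 and 1706 in CA_IP. Its formaldehyde libraries held 2354 and 3284 counts in input and 1311 and 1847 in the pull-down. TERC thus had only 9.77% to 17.4% of the counts of both entries. With the entries added together, the log2 fold change was -0.38 ± 0.20 in clean air (adjusted p = 0.51) and -0.46 ± 0.20 with formaldehyde (adjusted p = 0.54), closer to 0 than the TERC entry alone.

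**Figure D4:**
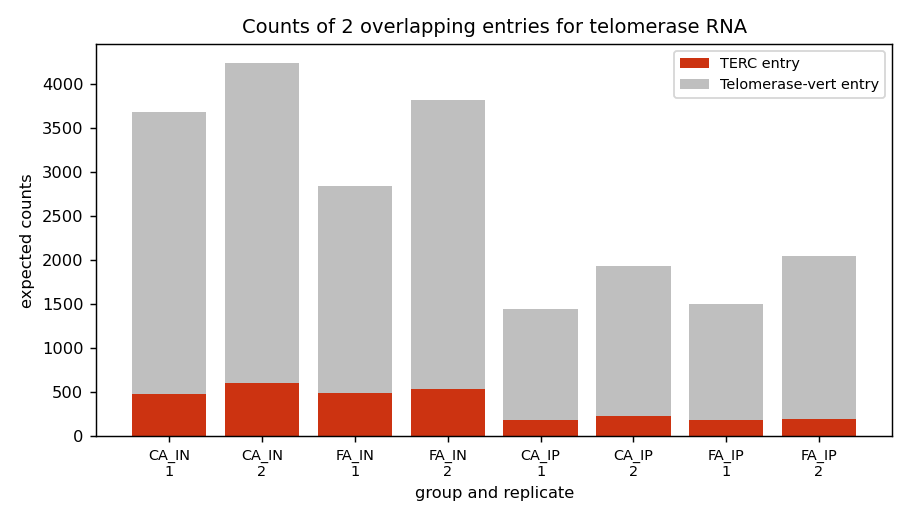
Expected counts of the TERC entry (red) and of the Telomerase-vert entry inside it (grey), stacked for each library. The red part is at most 17.4% of a bar.

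The second comparison asked whether formaldehyde changed the RNAs themselves in input. None of the 7 was called, and 0.00548% of all genes (1 of 18242) were. At an unadjusted p under 0.05, 0 of the 7 and 611 of all genes passed. With the file number as a replicate block, 244 genes were called lower and 14 higher, and without a filter 79 and 21, with none of the 7 among them in either fit. Log2 fold changes of FA_IN against CA_IN were 0.13 ± 0.15 for RN7SK, 0.09 ± 0.15 for RN7SL1, 0.09 ± 0.14 for RN7SL2, 0.12 ± 0.16 for RMRP and 0.12 ± 0.17 for RPPH1. TERC had 0.39 ± 0.25 and RNY1 -0.53 ± 0.40. The 95% intervals for the first 5 lay between -0.26 and 0.50, so with 2 libraries a group changes within these bounds are compatible with the data. The intervals are not adjusted for the number of genes and do not give the smallest change that could have been called. FA_IN replicate 1 had the highest input level of 6 of the 7 RNAs, all but RNY1. Without that library the value changed sign for RN7SK (-0.06), RN7SL1 (-0.13), RN7SL2 (-0.12), RMRP (-0.04) and RPPH1 (-0.0091).

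The last comparison asked whether the pull-down differed with exposure. The interaction, the formaldehyde fold change minus the clean-air one, was called for 0 of the 7 and for 0.0% of all genes, with 195 genes and none of the 7 at an unadjusted p under 0.05. A fit blocked on RNA pool called 20 genes higher and 5 lower, with the file number as a block 3 higher, without a filter 29 higher and 23 lower, and by DESeq2 on all 8 libraries 3 higher. None of the 7 was among the genes called in these 4 fits. Estimates were 0.17 ± 0.23 for RMRP, 0.16 ± 0.23 for RPPH1, 0.14 ± 0.22 for RN7SK, -0.11 ± 0.20 for RN7SL2, -0.20 ± 0.21 for RN7SL1, -0.41 ± 0.37 for TERC and -0.21 ± 1.04 for RNY1. The 95% interval for RMRP was -0.35 to 0.70, and that for RNY1 -2.57 to 2.16. Differences between the exposures within these bounds are compatible with the data, and the bounds are not limits of detection.

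Members differed in length, and short genes as a class were lower in the pull-down. The RNA with the lowest value, RNY1, was the shortest and TERC, next to last, the longest, but RN7SL1, RN7SL2, RN7SK and RPPH1, all between 299 and 333 bases, spread from -0.19 to -1.72 in the mean of both pull-downs. Of the 657 tested genes no longer than TERC, the 7 included, 21.5% were called lower in clean air and 16.4% with formaldehyde, and of the 17585 longer genes 1.03% and 0.910%. Among the 114 protein-coding genes of those 657, 46 were called lower in clean air and 42 with formaldehyde. The member count of 5 of 7 is to be read beside these shares; the part of length in the members' values was not tested.

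**Figure D5:**
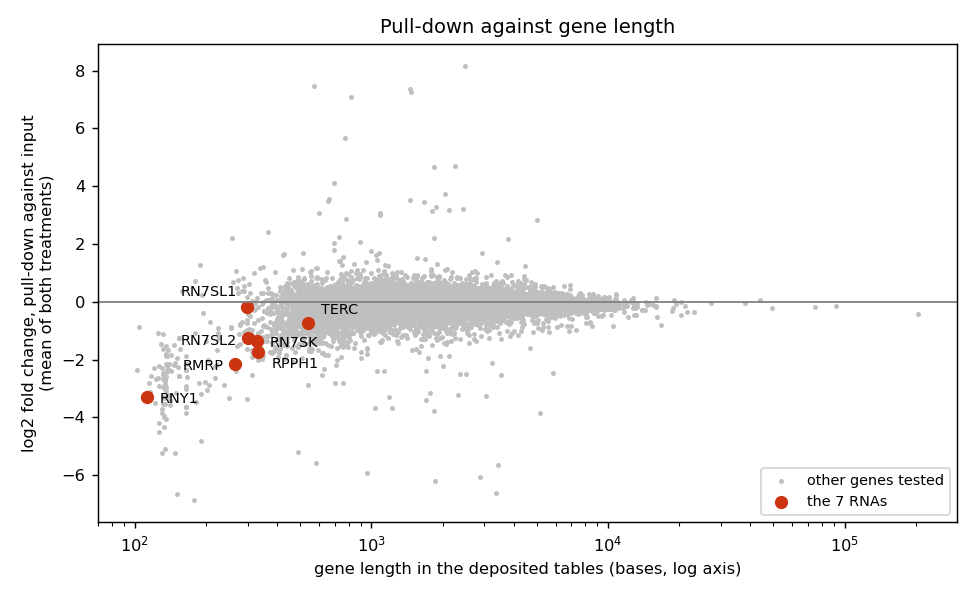
Log2 fold change of pull-down against input, as the mean of both exposures, against gene length in bases (log axis). Each grey point is 1 of the other tested genes and red points are the 7 RNAs. The shortest genes lie mostly below 0, with RN7SL1 (-0.19) near 0.

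Other small nuclear and nucleolar RNAs gave the nearest comparison. Of 21 spliceosomal snRNA genes, which build the splicing machinery, 13 were tested, and 12 were called lower in clean air and 9 with formaldehyde, with medians of -3.27 and -2.61. Some of the 13, RNU5A-1, RNU5B-1 and RNU5D-1 among them, passed the filter only through input libraries and could hardly be called anything but lower. These counts also hold copies with the same values in every library (RNU1-1 with RNU1-3, RNU1-2 with RNU1-4). RNU1-1 and RNU1-3, which have the same value and could share reads, stood at -5.08 ± 0.51 (adjusted p = 0.00083) in clean air but at -2.21 ± 0.42 (adjusted p = 0.041) with formaldehyde. Their near copies RNU1-2 and RNU1-4 stood at -2.14 ± 0.37 (adjusted p = 0.020) in clean air and -2.61 ± 0.38 (adjusted p = 0.0094) with formaldehyde, so the value of -5.08 belongs to 1 pair of copies in 1 exposure. In clean air RNU4-1 stood at -3.85 ± 0.26 (adjusted p = 0.00015) and RNU4-2 at -3.77 ± 0.36 (adjusted p = 0.00072). Of 63 tested SNORA genes, guides of pseudouridine formation, 40 were called lower in clean air and 25 with formaldehyde (medians -2.92 and -2.49). Of 11 tested SCARNA genes, their counterparts in Cajal bodies, 8 were called lower in each (medians -1.98 and -1.63). The medians of the 7 members, -1.44 and -1.31, lay nearer to 0 than those of these 3 groups, a difference that was not tested. How many SNORA and SCARNA genes passed the filter only through input libraries was not counted.

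Of 8 other polymerase III RNAs in the tables, 3 passed the filter. RNY3, another Y RNA, stood at -2.31 ± 0.52 (adjusted p = 0.068) in clean air and -2.43 ± 0.59 (adjusted p = 0.13) with formaldehyde. Like RNY1, it passed the filter only through its input libraries. BCYRN1, the neuronal BC200 RNA, stood at -1.45 ± 0.31 (adjusted p = 0.060) and -1.26 ± 0.31 (adjusted p = 0.14). None of the 3 was called in a single exposure, although all 3 passed an unadjusted p of 0.05 in both, and RNY3 (adjusted p = 0.0097) and BCYRN1 (adjusted p = 0.0094) were called lower in the mean of both pull-downs.

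The mRNAs of the partner proteins mostly stayed near 0. Of 7 mRNAs for the 7SK particle and P-TEFb, 0 were called, and the medians were 0.09 in clean air and 0.01 with formaldehyde. HEXIM1, which inhibits P-TEFb on 7SK, had 0.09 ± 0.18 and 0.04 ± 0.18, and CCNT1, the cyclin of P-TEFb, -0.03 ± 0.32 and -0.06 ± 0.32. None of the 6 mRNAs for signal recognition particle proteins was called (medians -0.02 and 0.04), SRP9 standing at -0.09 ± 0.08 and 0.03 ± 0.08 and SRP72 at -0.03 ± 0.08 and 0.04 ± 0.08. RO60, which binds Y RNAs, had -0.21 ± 0.13 and -0.22 ± 0.13, and SSB, the La protein, -0.03 ± 0.09 in both.

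Among the enzyme partners, single mRNAs fell. Of 11 mRNAs for RNase P and RNase MRP proteins, 1 was called in each exposure: RPP21, an RNase P subunit, at -1.02 ± 0.17 (adjusted p = 0.015) and -0.93 ± 0.17 (adjusted p = 0.029). Of 7 for telomerase proteins, 1 was called, NOP10, a small protein of the H/ACA core that binds TERC, at -1.39 ± 0.13 (adjusted p = 0.00069) and -1.25 ± 0.13 (adjusted p = 0.0016). The list medians were 0.05 and 0.04 for the RNase proteins and 0.09 and 0.07 for telomerase. Over all tested genes, 1.77% were called lower in clean air and 1.47% with formaldehyde. In the mean of both pull-downs, 2 of the 11 RNase mRNAs and 1 of the 7 for telomerase were called lower. Over all genes 3.04% were lower there. RPP21 and NOP10 had the shortest effective lengths on their lists, 319 to 359 and 320 to 345 bases over the libraries. The part of length in their values was not tested. Of the 11 RNA polymerase III subunits and the 10 factors of its upstream (type 3) promoters, 0 were called (medians 0.09 and -0.02, and -0.05 and 0.01). POLR3D had 0.22 ± 0.10 in clean air and CRCP 0.09 ± 0.09, and the promoter factors BDP1 and SNAPC1 had -0.23 ± 0.10 and -0.05 ± 0.12. In input, formaldehyde changed none of the mRNAs on these lists at the threshold.

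Across the 8 libraries the ribozyme RNAs and 7SK moved together, as a description of 4 groups that differ mainly by pull-down. Pearson's r of log2 CPM was 0.999 between RMRP and RPPH1, 0.997 between RN7SK and RPPH1 and 0.996 between RN7SK and RMRP. RN7SL1 stood apart, with r between 0.599 and 0.720 to the others. Among 9523 other genes of sufficient level, the one most like RMRP and RPPH1 was ENSG00000269900 (r = 0.999 for each), an entry of 268 bases that the annotation used here neither names nor places. Whether it is a second entry for RMRP that shares its reads was not tested, so its likeness to RMRP, and the counts of RMRP, are to be read with that limit. Its own log2 fold changes were -2.56 ± 0.20 in clean air and -2.25 ± 0.20 with formaldehyde. Next came SCARNA10 for RMRP (0.999) and MRPS18C for RPPH1 (0.997). For RN7SK they were ENSG00000259001, the entry that covers RPPH1, and the same unplaced entry (both 0.997), neither of which can be taken as independent of the members. SNORA73B (0.995) and SF3B5 (0.993) were closest to RN7SL2, SNORD10 (0.985) and SNORA48 (0.981) to RNY1, FAM13B (0.971) and SMIM20 (0.964) to TERC, and RPS15 (0.916) and MATR3 (0.896) to RN7SL1.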

How the data were processed

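BEAS-2B RNA was sequenced in 8 libraries (2 per group). The authors trimmed reads with cutadapt, aligned them with STAR 2.6.0a to GRCh38 (Ensembl 94; up to 20 loci per read) and counted them with RSEM 1.2.25, paired and without strand. The deposited expected counts and TPM are per transcript. Files of the authors' own comparisons (DESeq2 fold changes and p-values) were not used.

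Expected counts were summed by gene and rounded. Genes with at least 10 counts in at least 2 libraries entered edgeR 4.0.16 (R 4.3.3): TMM scaling, prior count 0.125, 1 fit to the 4 groups, quasi-likelihood test, Benjamini-Hochberg adjustment, limit 0.05. The script was checked on simulated data. Names, positions and sequences came from GENCODE 44 (58207 of 58735 IDs named). 7SL sequences were aligned with Biopython 1.88 and are not reported here.

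The 7 genes and the lists were chosen with earlier results of these data known. From each list the text names the called genes with the largest fold changes (at most 4), or, where none was called, the 2 with the highest counts. SNORA and SCARNA genes were given only as counts and medians. RNU1-2, RNU1-4, RNY3, BCYRN1, RN7SL3 and the overlapping entries were named outside this rule, after their values were seen.

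Replicates are numbered in accession order. File names carry the numbers 1 and 3, and the study split input and pull-down from 1 RNA. Differences between the numbers correlated across genes between input and pull-down (r = 0.380 in clean air, 0.246 with formaldehyde; other pairs of groups 0.203 to 0.283), so pools were blocked in an alternative fit. With 4 residual degrees of freedom, p-values measure the spread between these duplicates, called biological by the labels. Alternatives covered scaling, filters, DESeq2 1.42.0, transcripts, blocks, joined entries and leaving out each library.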

Additional observations from a re-analysis of the deposited data

How the results depend on the processing

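The number of the 7 RNAs called lower was 5 in each exposure. This counts RN7SL2, while RN7SL1 and RN7SL2 summed, fitted only without a block, were called in neither exposure. In clean air it stayed between 4 and 5 with each library left out. With formaldehyde it ran from 3 (without FA_IN replicate 1, when RN7SK and RNY1 missed the limit) to 5, and was 2 when transcripts were tested in place of genes (RMRP and RN7SL2, with RPPH1 at an adjusted p of 0.051 and RN7SK at 0.063); the cause was not tested, though more features enter that adjustment. For the mean of both it was 5 to 6 with a library left out. RMRP was called lower in both exposures in all 23 alternatives. With the RNA pool as a replicate block TERC was called in clean air (-0.54), and RN7SL1 (-0.28) and TERC (-0.95) with formaldehyde. All 7 were thus called lower with formaldehyde in that fit, which raised the calls over all genes as well. The block on the file number alone called TERC with formaldehyde (-0.96). Over both exposures together, TERC passed under either block and RN7SL1 under the pool block, and no other call among the members changed. TERC was also called with formaldehyde by DESeq2 on 8 libraries (-0.97, adjusted p = 0.019), and TERC and RN7SL1 without a filter. In all, TERC was called lower with formaldehyde in 5 of the 23 alternatives, not all of them named here. The alternatives in which RNY1 lost a call are likewise not all named. RNY1 was not tested where a mean count of at least 50 was required. Adding the counts of overlapping entries was chosen after seeing the data.

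Signs changed only for values that were not called. RN7SL1 in clean air was 0.059 with library size in place of TMM, which moved the median of all genes to 0.16, and -0.23 to 0.042 with a library left out. Formaldehyde effects in input ran, with a library left out, from -0.057 to 0.26 for RN7SK, -0.13 to 0.24 for RN7SL1, -0.12 to 0.24 for RN7SL2, -0.042 to 0.22 for RMRP and -0.0091 to 0.20 for RPPH1. Interaction estimates ran from -0.034 to 0.34 for RN7SK, -0.34 to 0.024 for RN7SL1, -0.26 to 0.11 for RN7SL2, -0.0063 to 0.38 for RMRP, -0.045 to 0.40 for RPPH1 and -1.05 to 1.61 for RNY1. That for RN7SL2 was 0.018 with effective-length offsets, and that for RNY1 0.016 with a prior count of 2. A group reduced to 1 library was assumed to vary like the others.

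Calls over all genes moved more; those for formaldehyde in input and for the interaction stand with those comparisons. In clean air 322 lower and 27 higher became 539 and 147 without a filter, 336 and 821 with library size, 154 and 10 over transcripts, 706 and 1235 with the number block, and 403 and 92 by DESeq2 on 8 libraries. With formaldehyde 268 and 6 became 515 and 63, 243 and 318, 93 and 5, 586 and 367, and 369 and 18. Depth limits RNY1, at 1 to 6 counts in the pull-downs.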
